A study of Mus musculus with 14 samples.

Results

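The chromatin regions around 4 mouse genes, Slc22a8, Zfp932, Bmf and Gda, were followed across all libraries of a bulk ATAC-seq comparison of Atg14-deficient and control Tregs. A region belonged to a locus when its midpoint had one of these genes as the nearest protein-coding transcription start on GRCm38, or lay in one of their gene bodies. This gave 19 of the 67254 regions counted by the authors: 4 for Slc22a8, 2 for Zfp932, 7 for Bmf and 6 for Gda, each of them by the nearest start. The genes were selected on the genotype contrasts of these same libraries, in which a region of each stood high in Atg14-deficient cells, so the genotype differences below are descriptions and carry no test. The contrasts of eTregs with cTregs played no part in that choice and were tested.

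ATAC-seq uses a transposase to cut and tag open chromatin, and the reads over a region rise with the openness of the DNA there. The cells were splenic Tregs, sorted as CD4+Foxp3-YFP+, of mixed bone marrow chimeras, with all genetic models described by the study as on the C57BL/6 background. The files hold counts and no reads, so the DNA sequence of the donors at these loci was not analysed here, and a count also depends on how well reads align to the reference. Central Tregs (cTregs) were sorted as CD44–CD62L+ and effector Tregs (eTregs) as CD44+CD62L–. The donors of the studied CD45.2+ cells all carried Foxp3-driven Cre, with 1 floxed Atg14 allele in the controls (Foxp3CreAtg14+/fl) and both alleles floxed in the Atg14-deficient donors (Foxp3CreAtg14fl/fl). This marrow was mixed with equal parts of CD45.1+ wild-type marrow and given to sublethally irradiated Rag1–/– hosts, which lack their own T and B cells, for 6 to 8 weeks. There were 3 control cTreg, 4 Atg14-deficient cTreg, 3 control eTreg and 4 Atg14-deficient eTreg libraries. The controls therefore also express Cre and lack at most a single Atg14 copy in Tregs. By the study's account the cTregs and eTregs of a genotype were sorted from the same chimera mice, as many mice as there are libraries per cell state, and the labels do not say which mouse gave which library.

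The 14 libraries held 2242983 to 5548189 counts, and 61366 regions, 18 of the 19 members among them, passed edgeR's filter on low counts. The regions nearest to Atg14 do not test the deletion, because the position of the floxed part is not given in the sources used here. The Treg marker Ctla4, Ikzf2 and Il2ra promoters each held a region, whereas the region nearest to Foxp3 lay 3.65 kb from a start of that gene. Summed over 14 regions at the promoters of 8 cTreg genes, signal ran from 415 to 504 counts per 1000000 library counts (CPM) in control cTregs and from 291 to 314 in control eTregs, and from 471 to 530 and from 356 to 393 in the Atg14-deficient groups. The promoters of 6 of 8 eTreg genes, had 11 regions, and their summed signal overlapped between the states in controls and did not in Atg14-deficient cells. It ran from 321 to 371 CPM in control cTregs and from 333 to 400 CPM in control eTregs, and from 340 to 369 and from 378 to 406 CPM in the Atg14-deficient groups. At an unadjusted p of 0.05 in either direction, 3 of the 11 passed in each genotype (background 18.2% in controls and 23.1% in Atg14-deficient cells). These held falls at Icos as well as rises at Maf (0.95 ± 0.36 in controls and 0.75 ± 0.31 in Atg14-deficient cells, log2 scale). None was called higher in eTregs after adjustment. An Icos promoter region fell by 0.75 ± 0.18 on the log2 scale in Atg14-deficient eTregs against cTregs (edgeR adjusted p = 0.00895), next to -0.69 ± 0.21 in controls (adjusted p = 0.05005). The promoters of the 2 erythroid genes examined, Gata1 and Klf1, held no region at all. At the single promoter region of the CD8 T cell genes, that of Cd8b1, cTreg libraries of either genotype held 10.3 to 21.4 CPM and eTreg libraries 1.54 to 6.83 CPM. The myeloid and NK lists also had a single promoter region each, with 4.18 to 17.3 CPM at Spi1 and 0 to 5.99 CPM at Klrb1c over all libraries. The cTreg promoters thus also stood higher in Atg14-deficient than in control eTregs, without overlap of the summed signal, and 4 of the 14 regions passed an unadjusted p of 0.05 in that genotype contrast, where 6.36% of all tested regions did, and 0 passed the adjusted threshold of edgeR. The part of these marker differences in the contrasts of eTregs with cTregs and in the genotype contrasts was not tested. In bulk libraries, openness in more cells and greater openness per cell cannot be told apart.

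The 4 genes have unrelated products. Slc22a8 encodes OAT3, an organic anion transporter best known from kidney tubules, and Gda encodes guanine deaminase, which turns guanine into xanthine in purine breakdown. Bmf encodes a BH3-only protein that binds and blocks the survival proteins of the BCL2 family and so promotes apoptosis, a route by which the size of lymphocyte pools is held in check. Zfp932 is a zinc finger gene in a stretch of chromosome 5 that holds several related genes. Atg14 itself is a subunit of the class III PI3K complex that starts autophagosome formation.

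The sequences of the leading region of each locus, and of the Bmf promoter, are given first, because they separate the loci into those with near copies elsewhere in the genome and those without. All are from the GRCm38 reference and not from reads. For the Slc22a8 region, the central 300 bases are shown (chr19:8518317-8518616, plus strand), with capitals at bases that differ from the copy on chromosome 10 described below. For Zfp932, the 187 bases of the region ahead of the annotated start are shown (chr5:109996315-109996501, plus strand), with capitals at bases that differ from the closest copy on chromosome 5. For Bmf, the central 300 bases of the upstream region (chr2:118554384-118554683) and the 213 bases of the promoter region ahead of the start (chr2:118549687-118549899) are on the minus strand, on which the gene lies, with CpG in capitals. For Gda, the central 300 bases (chr19:21507705-21508004, minus strand, that of the gene) have the RUNX and TCF/LEF letters in capitals.
Slc22a8 upstream: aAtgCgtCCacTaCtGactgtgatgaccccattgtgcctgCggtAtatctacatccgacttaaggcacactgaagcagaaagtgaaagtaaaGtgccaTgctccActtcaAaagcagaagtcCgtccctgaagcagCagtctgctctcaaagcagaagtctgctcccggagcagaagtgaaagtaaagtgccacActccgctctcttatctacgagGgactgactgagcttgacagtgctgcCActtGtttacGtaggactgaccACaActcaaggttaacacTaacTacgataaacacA
Zfp932 promoter: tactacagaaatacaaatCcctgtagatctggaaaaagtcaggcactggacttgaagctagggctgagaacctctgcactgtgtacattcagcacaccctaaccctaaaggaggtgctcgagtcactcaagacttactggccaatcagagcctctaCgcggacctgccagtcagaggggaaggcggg
Bmf upstream: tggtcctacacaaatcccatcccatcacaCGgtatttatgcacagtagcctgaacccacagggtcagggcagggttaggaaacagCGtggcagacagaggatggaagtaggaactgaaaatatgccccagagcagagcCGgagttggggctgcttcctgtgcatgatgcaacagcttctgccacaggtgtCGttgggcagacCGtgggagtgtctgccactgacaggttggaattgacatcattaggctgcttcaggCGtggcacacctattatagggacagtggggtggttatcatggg
Bmf promoter: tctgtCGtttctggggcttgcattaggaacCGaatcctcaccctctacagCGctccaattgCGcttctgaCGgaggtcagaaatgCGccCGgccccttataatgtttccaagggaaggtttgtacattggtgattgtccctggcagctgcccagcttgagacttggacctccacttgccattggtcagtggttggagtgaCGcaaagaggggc
Gda upstream: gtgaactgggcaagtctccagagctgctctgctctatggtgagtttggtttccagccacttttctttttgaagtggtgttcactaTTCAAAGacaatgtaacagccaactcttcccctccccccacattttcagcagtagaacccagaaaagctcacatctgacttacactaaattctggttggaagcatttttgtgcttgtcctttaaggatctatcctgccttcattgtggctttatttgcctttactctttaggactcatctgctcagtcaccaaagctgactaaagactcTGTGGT

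The leading region of the Slc22a8 locus, chr19:8518263-8518671, lay between genes 72.8 kb upstream of the nearest Slc22a8 start. Its signal was 2.93, 3.35 and 1.78 CPM in control cTregs and 22.7, 18.7, 23.9 and 29.6 CPM in Atg14-deficient cTregs. In eTregs it was 3.90, 2.62 and 2.52 CPM in controls and 20.4, 22.6, 26.2 and 21.1 CPM in Atg14-deficient cells. Each Atg14-deficient library thus stood above each control library in both cell states, and the lowest of them was over 4 times the highest control. The log2 fold change was 2.92 ± 0.30 (SE) in eTregs and 3.07 ± 0.31 in cTregs. Per kb of region, the mean signal exceeded that of 12.2% of tested regions in control eTregs and of 86.1% in Atg14-deficient eTregs.

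The other 3 Slc22a8 regions were weaker on the mean over all 14 libraries, a rank carried by the Atg14-deficient libraries. In controls the region 0.8 kb from the start was above the leading region, at 5.62 against 2.69 CPM in cTregs and 4.85 against 3.02 CPM in eTregs. The neighbour at 72.2 kb upstream, chr19:8518914-8519280, averaged 1.83 ± 1.84 CPM (SD, n = 3) in control and 6.22 ± 1.88 (n = 4) in Atg14-deficient eTregs, and 2.84 ± 1.69 and 6.76 ± 2.45 CPM in the corresponding cTregs. Its genotype groups were apart in eTregs and overlapped in cTregs, with log2 fold changes of 1.71 ± 0.57 and 1.19 ± 0.55. Leaving out 1 library gave 1.22 to 2.51 in eTregs and 0.94 to 1.82 in cTregs, the highest without control replicate 2 of each state. At the region inside the gene, 0.8 kb from the nearest start, log2 fold changes were 0.74 ± 0.45 and 0.19 ± 0.46, and at the region 12.9 kb upstream they were 0.67 ± 0.66 and 0.14 ± 0.73, with overlapping groups in all 4 cases. The difference between genotypes at this locus was thus large at the far upstream region and within about 2 SE of 0 next to the gene.

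At the Zfp932 promoter region, chr5:109996315-109996661, which covers the annotated start, signal was close to nil in controls. Control cTregs held 0.489, 0.957 and 5.35 CPM and control eTregs 1.95, 0 and 1.08 CPM, that is 18 and 12 counts over 3 libraries each. Most counts in the table are even, as when both reads of a pair are counted, so the limit for a library with 0 counts was set at 3 read pairs, here 1.57 CPM, which covers counting error only. Atg14-deficient cTregs held 31.9, 43.6, 23.4 and 25.1 CPM and Atg14-deficient eTregs 30.6, 40.2, 31.0 and 31.3 CPM. The groups did not overlap in either state. The fitted differences were 5.04 ± 0.52 (eTregs) and 4.06 ± 0.49 (cTregs) on the log2 scale, and with so few control counts their size depends on single libraries: without control cTreg replicate 3, the highest of the controls, the cTreg value was 5.34. Per kb, the promoter exceeded 1.83% of tested regions in control and 94.7% in Atg14-deficient eTregs. The other Zfp932 region, 20.5 kb past the start and downstream of the gene, held 2.88 ± 1.52 and 3.30 ± 0.93 CPM in control and Atg14-deficient eTregs, and its genotype difference was 0.21 ± 0.54 (eTregs) and 0.02 ± 0.55 (cTregs) on the log2 scale.

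At Bmf, the leading region was chr2:118554247-118554822, 4.8 kb upstream of the start. Control cTregs held 8.80, 4.31 and 13.4 CPM and Atg14-deficient cTregs 61.7, 52.9, 50.5 and 51.7 CPM. In eTregs the controls held 0.651, 7.35 and 5.77 CPM and the Atg14-deficient libraries 66.8, 47.7, 47.6 and 44.4 CPM. On the mean over all 14 libraries this was the strongest of the member regions, a rank carried by the Atg14-deficient libraries, since other members were higher in both control groups. Its genotype groups were far apart in both states, by 3.40 ± 0.36 (eTregs) and 2.69 ± 0.35 (cTregs) on the log2 scale.

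The Bmf promoter region, chr2:118549503-118549899, also stood higher in both Atg14-deficient groups than in the controls, at a smaller scale. It held 5.38, 5.74 and 6.24 CPM in control cTregs, 12.6, 14, 7.89 and 15.4 CPM in Atg14-deficient cTregs, 1.95, 6.82 and 6.13 CPM in control eTregs and 21.6, 25.5, 15.9 and 21.1 CPM in Atg14-deficient eTregs. The groups did not overlap in either state. The log2 fold change was 2.02 ± 0.33 in eTregs and 1.10 ± 0.34 in cTregs, a difference of 0.92 ± 0.48. Of the 5 regions from 0.9 to 20.9 kb past the start, the region over a coding exon at 0.9 kb (chr2:118546553-118546803) gave 1.45 ± 0.44 (eTregs) and 1.01 ± 0.40 (cTregs), again without overlap of the groups. The 4 farther ones had values from 0.21 to 0.89 in eTregs and from 0.49 to 1.02 in cTregs, and their groups overlapped in cTregs. The genotype difference of the Bmf regions was thus highest upstream of the gene and smaller along the gene body.

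At Gda, the leading region was chr19:21507495-21508216, 35.2 kb upstream of the start and between genes. Control cTregs held 0.978, 0.957 and 0 CPM, and the library at 0 allows up to 2.68 CPM. Atg14-deficient cTregs spread widely, at 13.4, 3.11, 5.78 and 17.3 CPM. Control eTregs held 4.55, 3.67 and 1.80 CPM and Atg14-deficient eTregs 15, 16.7, 20.6 and 19.5 CPM. The groups did not overlap in either state, although the lowest Atg14-deficient cTreg library lay below 2 of the control eTreg libraries. On the log2 scale the difference was 2.48 ± 0.46 (eTregs) and 3.67 ± 0.60 (cTregs).

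The Gda promoter region, chr19:21472442-21472753, was low throughout, at 1.36 ± 0.51 CPM in control and 5.43 ± 1.78 CPM in Atg14-deficient eTregs and at 1.27 ± 1.04 and 3.53 ± 0.65 CPM in cTregs. Its genotype groups were apart in both states, with log2 fold changes of 2.03 ± 0.57 and 1.41 ± 0.60, the latter 2.40 without control cTreg replicate 1. Of the other Gda regions, the one at 37.7 kb upstream (0.94 ± 0.42) and the one downstream of the gene at 98.9 kb (0.82 ± 0.37) had non-overlapping genotype groups in eTregs, and values of 0.04 ± 0.44 and 0.06 ± 0.36 in cTregs. The region 77.3 kb upstream had 0.27 ± 0.45 and 1.01 ± 0.55. The region 23.3 kb upstream, which did not pass the filter, held 5 and 6 counts in all in control cTregs and eTregs, and 8 and 39 in the Atg14-deficient groups.

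**Figure D1:**
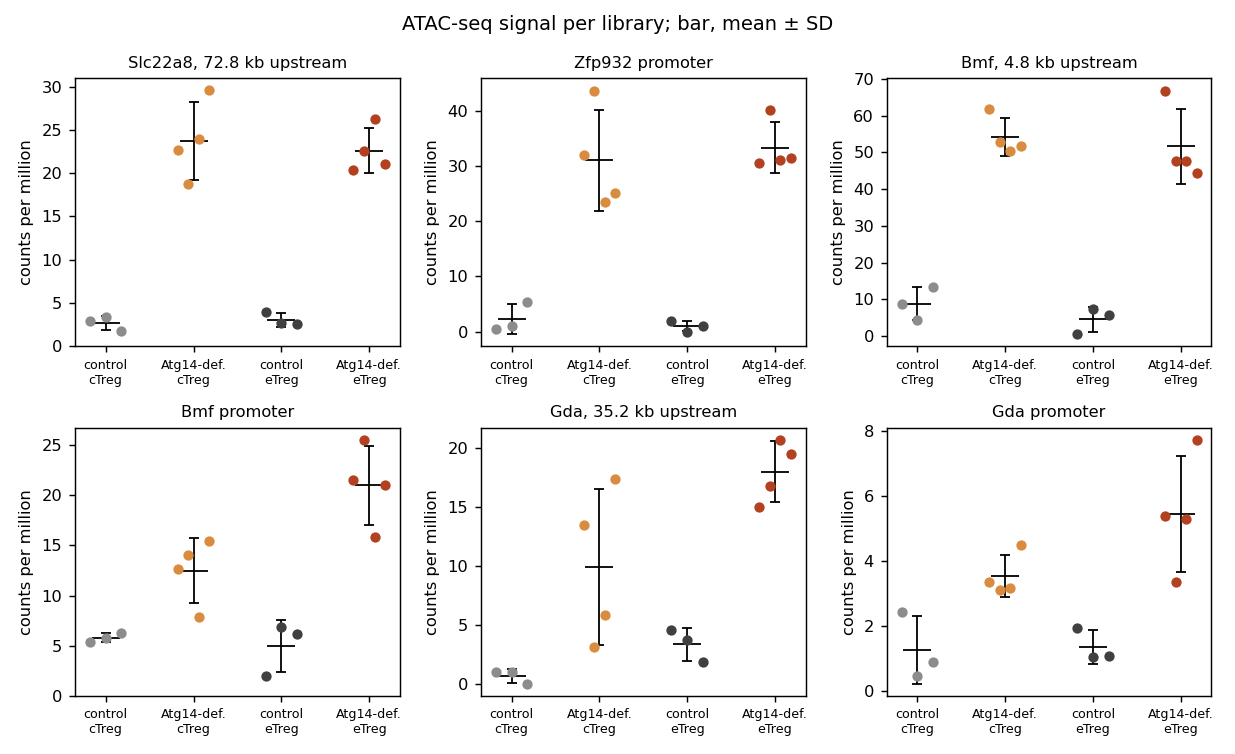
CPM in each library (points) for the leading region of each locus and the Bmf and Gda promoters, by group, with mean ± SD (3 control and 4 Atg14-deficient libraries per cell state). Atg14-deficient libraries sit above the controls of the same cell state in all 6 panels, and the Zfp932 promoter controls lie between 0 and 5.35.

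Over the 18 tested members, the log2 fold change of Atg14-deficient against control was above 0 for 18 in eTregs and for 18 in cTregs, against 56.2% and 53.5% of all tested regions. The median was 0.92 in eTregs and 1.01 in cTregs, beside 0.06 and 0.03 over all tested regions. The count past an adjusted p of 0.05 and a log2 fold change of 0.5 was 5 in eTregs (background 0.0212% higher) and 4 in cTregs (background 0.0147%). At an unadjusted p of 0.05 with the same fold change the counts were 11 (background 4.59%) and 9 (background 1.99%), and all Atg14-deficient libraries stood above all controls at 12 (background 4.97%) and 7 (background 3.05%). These counts describe the contrasts on which the genes were selected. The signs of the weaker members depended on single libraries. In eTregs 1 or 2 members fell below 0 without control replicate 2 or 3 or Atg14-deficient replicate 3 or 4, namely the Bmf regions at 6.6 and 20.9 kb and the Zfp932 region at 20.5 kb. In cTregs 1 to 3 did so without control replicate 1 or 3 or Atg14-deficient replicate 1, 3 or 4, namely the Slc22a8 region at 0.8 kb, the Gda regions at 23.3, 37.7 and 98.9 kb and the Zfp932 region. With the replicate number as a block, 17 of 18 in eTregs and 15 of 18 in cTregs were above 0. In the genotype contrasts this block groups same-numbered control and Atg14-deficient libraries, which come from different mice, so it is not a pairing. The difference between the genotype contrasts of the 2 states ranged from -1.19 ± 0.79 at the Gda region 35.2 kb upstream to 0.99 ± 0.82 at the Zfp932 promoter.

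**Figure D2:**
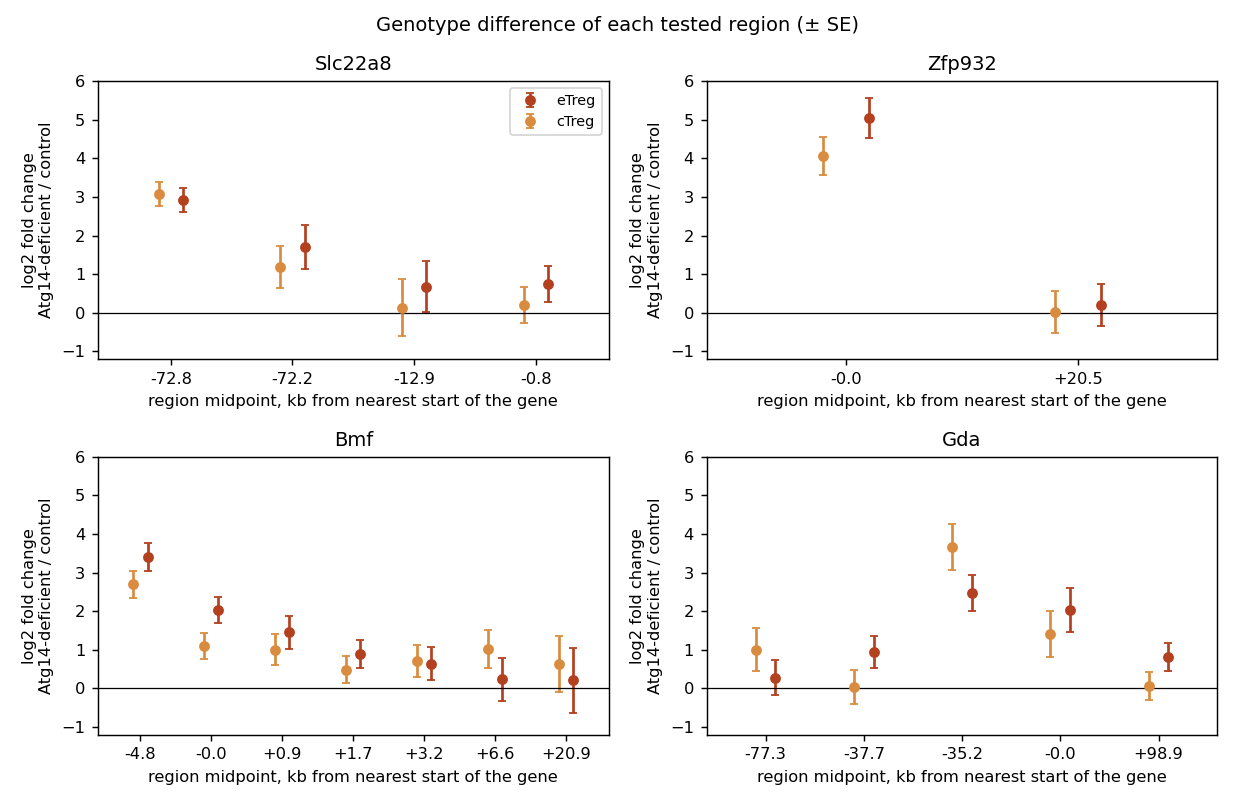
Log2 fold change (± SE) of Atg14-deficient against control for the 18 tested regions, one panel per gene, in eTregs and cTregs, ordered along the x axis by distance in kb from the nearest start of the gene (order only, not to scale). All values are above 0, with the highest at the Zfp932 promoter (5.04 in eTregs) and values near 0 at the second Zfp932 region.

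The tested regions around the leading regions are given as a description, since the leading regions, unlike their surroundings, were picked from the same contrasts. Over all tested regions, 6.36% in eTregs and 3.34% in cTregs passed the unadjusted threshold in either direction. Within 500 kb of the Slc22a8 region, 40 tested regions that belong to none of the loci had log2 fold changes from -0.33 to 1.82 in eTregs and from -0.99 to 1.41 in cTregs, with medians of 0.34 and 0.13. Of these, 9 and 5 passed the unadjusted threshold, and the nearest lay 165 kb away. Around the Zfp932 promoter, 38 regions ranged from -0.72 to 0.64 and from -0.45 to 1.32, with 0 and 1 past the unadjusted threshold. The 52 regions around the Bmf region ranged from -1.09 to 1.37 and from -1.71 to 2.59, with 5 and 4 past it. For Gda, 42 regions ranged from -1.63 to 0.82 and from -1.73 to 1.30, with 2 and 1 past it. None of these flanking regions passed the adjusted threshold in edgeR's test in either state.

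**Figure D3:**
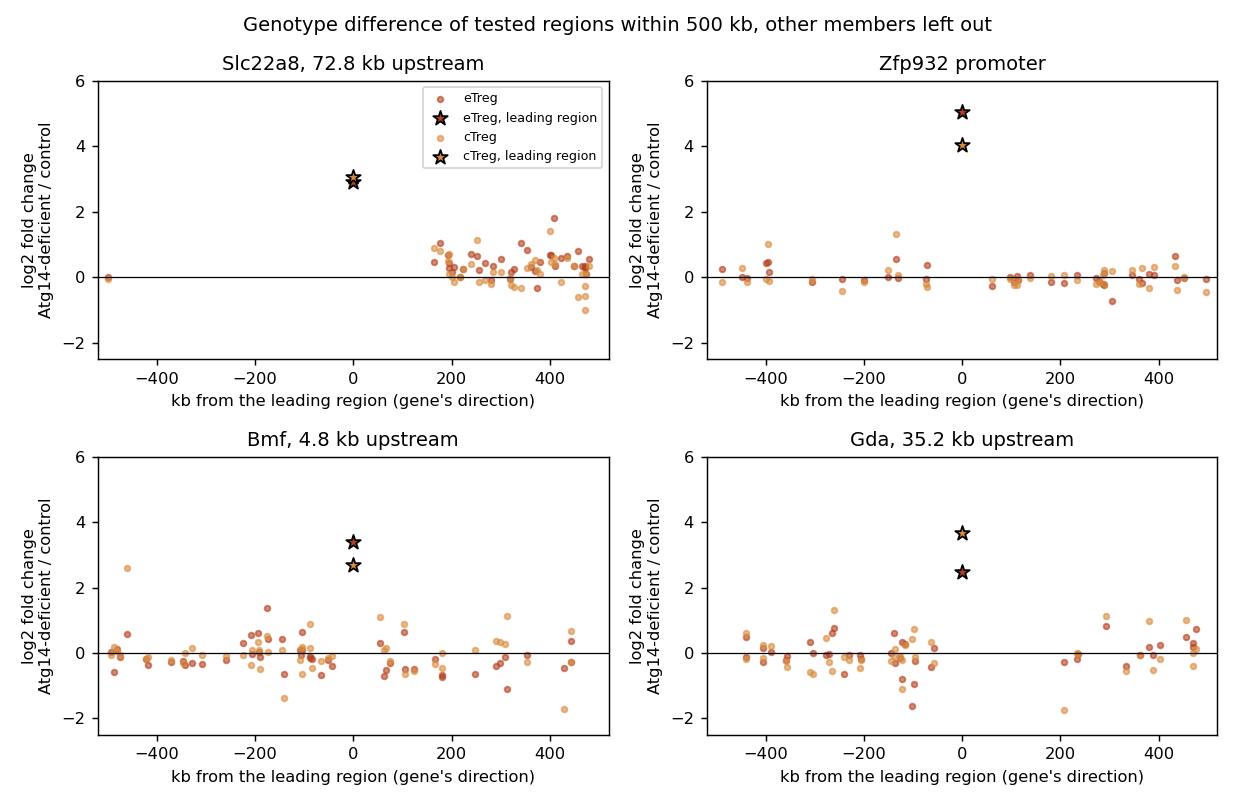
Log2 fold change of Atg14-deficient against control for tested regions within 500 kb of each leading region (stars), against distance in kb along the direction of the gene, for eTregs and cTregs. The flanking points lie between -1.73 and 2.59, with a median of 0.34 in eTregs around the Slc22a8 region, and the stars mark regions picked for a high value.

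The leading Slc22a8 region and the Zfp932 promoter have near copies elsewhere in GRCm38, and those of Bmf and Gda do not. Aligned at 85% identity or more over at least 80% of its length, the Slc22a8 region had 9 other copies, the closest 92.9% identical, and 6 of them lay under a region of the table. Signal at these 6 showed little of the genotype difference. The copy on chromosome 10 (chr10:79417102-79417510, 91.9% identical, 33 differing bases in the Slc22a8 region), 51.6 kb from a start of Vmn2r83, held 23.7 ± 7.63 CPM in control and 23.5 ± 4.62 in Atg14-deficient cTregs, and 22.7 ± 4.26 and 26.8 ± 6.66 in eTregs, with log2 fold changes of -0.02 ± 0.24 and 0.23 ± 0.24. Over the 6, the log2 fold change was highest in eTregs at the copy 54.3 kb from Ccdc66 (0.98 ± 0.42), where cTregs gave 0.09 ± 0.40. The neighbouring region at 72.2 kb is 93.7% soft-masked, that is marked as repeat in the reference, against a median of 8.78% over tested regions, and it had 325 such copies.

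The Zfp932 promoter had 6 other copies, and 5 lay under a region of the table. The closest, chr5:109923450-109923794, is 96.8% identical over the whole region and lies 0.061 kb from a start of LOC115490200. The printed upstream stretch holds only 2 of the 10 bases of the region that differ from it. That copy held 69.0 ± 7.19 CPM in control and 60.4 ± 12.6 CPM in Atg14-deficient cTregs, and 66.1 ± 7.50 and 64.1 ± 11.5 CPM in eTregs, which is above the Zfp932 promoter in every group. The log2 fold changes of the 5 copies ran from -0.33 to 0.00 in eTregs and from -0.19 to 0.23 in cTregs. With so few differing bases, reads of Zfp932 and its copies can be hard to tell apart, and the counts of these regions are uncertain to that extent. The part of this in the genotype difference was not tested. GENCODE also places the first exon of the antisense RNA 1010001B22Rik on the other strand in this region. The Bmf and Gda leading regions and promoters had no copy over 80% of their length, and the upstream Bmf region had only short repeat pieces elsewhere.

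**Figure D4:**
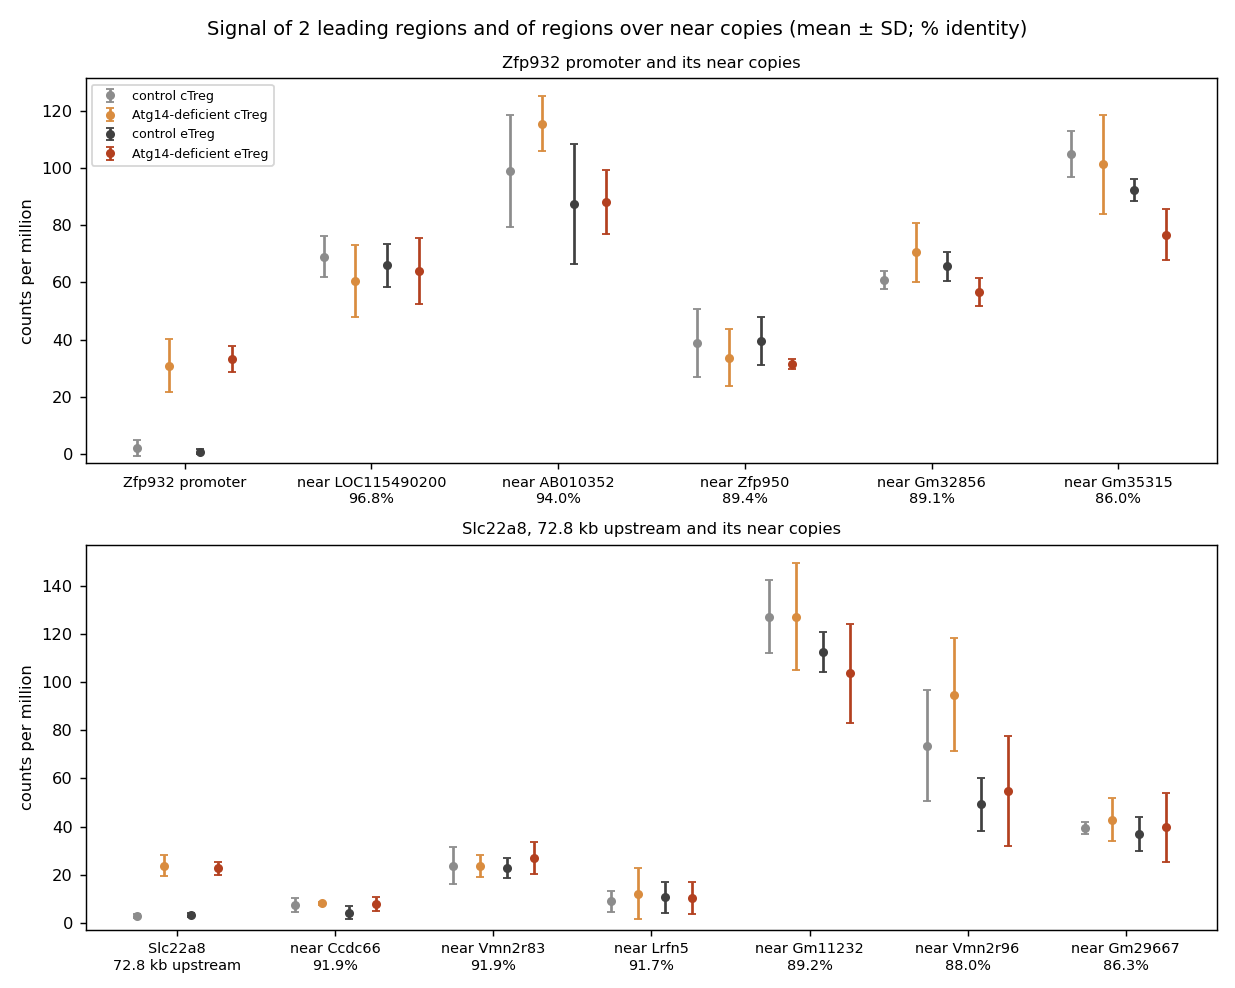
Mean ± SD CPM in the 4 groups for the Zfp932 promoter and for the Slc22a8 region 72.8 kb upstream (leftmost in each panel) and for table regions over their near copies, named by nearest gene with percent identity. The 2 member regions are low in both control groups, and the copies, from 86.0% to 96.8% identical, show no such split.

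Other sequence features of the members resembled those of the table at large. Median GC content was 48.6% over the 19 members and 49.4% over tested regions, median length was 312 and 340 bases, and the median soft-masked share was 10.8% and 8.78%. In the central 300 bases, on both strands, the RUNX letters TGTGGT were found in 6 members (29.1% of tested regions), the forkhead letters TGTTTAC in 2 (4.49%), the TCF/LEF letters CTTTGAA in 2 (7.37%), the Sp/KLF letters GGGGCGGG in 2 (9.01%) and the AP-1 letters TGANTCA in 1 (14.6%). No member held the ETS letters CCGGAAG (6.15%), the NF-kB letters GGGANTTCC (2.27%) or the CRE letters TGACGTCA (1.20%). The forkhead matches lay in both far upstream Slc22a8 regions, and a RUNX and a TCF/LEF match in the leading Gda region, as printed above. The leading Bmf region and the Zfp932 promoter held none of the 8. A match describes letters and not a bound site.

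Whether the members differed between eTregs and cTregs was then tested within each genotype. In controls, 0 of 18 members passed an adjusted p of 0.05 with a log2 fold change beyond 0.5 by edgeR's quasi-likelihood test (background 5.3%), and 3 passed at an unadjusted p of 0.05 (background 18.2%). Of the 18, 6 were low enough in controls that they passed the count filter only with the Atg14-deficient libraries, in which the loci were picked as high, so the calls they could give in controls were limited in advance. These were the Zfp932 promoter, the Slc22a8 regions at 72.2 and 12.9 kb, the Gda promoter, the Gda region at 35.2 kb and the Bmf region at 20.9 kb. In a fit of the control libraries alone, which kept the other 12, edgeR called 0 after adjustment (background 5.93%) and 2 at an unadjusted p of 0.05 (background 18.8%). In Atg14-deficient cells, 1 of 18 passed the adjusted threshold (background 9.81%) and 6 the unadjusted one (background 23.1%). These 18 include the same 6 members, which passed the filter only with these Atg14-deficient libraries, so the background is not a matched one. The member called was kept by the filter on control libraries alone. The medians over the members were -0.31 in controls and 0.02 in Atg14-deficient cells, beside -0.01 and 0.02 over all tested regions. The 2 contrasts share no library, and each shares libraries with the genotype contrasts. In controls, DESeq2's Wald test called 2 members (background 6.82%).

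The Bmf intron region 6.6 kb past the start, chr2:118540868-118541145, was the member that passed. It held 9.24, 7.79, 4.73 and 15.4 CPM in Atg14-deficient cTregs and 2.40, 2.51, 4.76 and 1.54 CPM in Atg14-deficient eTregs, so the groups overlapped by a single library each. It fell by 1.70 ± 0.48 on the log2 scale in eTregs (adjusted p = 0.0215, edgeR's quasi-likelihood test). In controls, with 4.64, 5.27 and 3.57 CPM in cTregs and 1.95, 4.72 and 0.721 CPM in eTregs, the value was -0.93 ± 0.57 (adjusted p = 0.381). Its single AP-1 match is the only one among the members. The call rests on single libraries: the adjusted p was 0.0856 without Atg14-deficient cTreg replicate 4, 0.0604 without Atg14-deficient eTreg replicate 1 and 0.0803 without Atg14-deficient eTreg replicate 4.

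The 7 Bmf regions all had log2 fold changes below 0 in control eTregs against cTregs, from -1.10 to -0.16, but none passed the adjusted threshold. The value of the promoter turned to 0.17 without control eTreg replicate 1. Over all tested regions, 49.2% were above 0 in controls and 51.7% in Atg14-deficient cells. In Atg14-deficient cells 6 of the 7 were below 0, and the promoter stood apart at 0.75 ± 0.29 (adjusted p = 0.0874), where each eTreg library lay above each cTreg library. The leading upstream Bmf region gave -0.78 ± 0.43 in controls (adjusted p = 0.333) and -0.07 ± 0.27 in Atg14-deficient cells (adjusted p = 0.904).

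The smallest p-values of the members in controls were at 2 Gda regions. The region 77.3 kb upstream, chr19:21549718-21550151, held 3.42, 4.31 and 0 CPM in control cTregs and 7.16, 13.6 and 8.29 CPM in control eTregs, without overlap, and the library at 0 allows up to 2.68 CPM. The log2 fold change was 1.75 ± 0.55 (adjusted p = 0.0589). In Atg14-deficient cells it held 10.9, 3.11, 2.63 and 7.07 CPM in cTregs and 13.5, 11.7, 7.94 and 13.9 CPM in eTregs, with overlap, and gave 1.02 ± 0.45 (adjusted p = 0.145). At the leading region 35.2 kb upstream, the values were 2.05 ± 0.69 in controls (adjusted p = 0.0775), with eTreg libraries all above cTreg libraries, and 0.86 ± 0.38 in Atg14-deficient cells (adjusted p = 0.142). The control value at 77.3 kb passed the threshold under 8 alternatives, with adjusted p of 0.0499 or less, given with the other alternatives at the end.

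With the replicate number as a block, which pairs the eTreg and cTreg libraries of the same number, edgeR called 2 of 18 members in controls (background 10.4% under the same block). These were the Gda regions 77.3 kb (log2 fold change 1.87, adjusted p = 0.00367) and 35.2 kb upstream (adjusted p = 0.0119), both higher in eTregs, and the region at 35.2 kb is one of the 6 that a filter on control libraries alone did not keep. The Atg14-deficient contrast with the block called 4 of 18 (background 15.5%). These were the Bmf region at 6.6 kb (log2 fold change -1.66, adjusted p = 0.00921), the Bmf promoter (0.76, adjusted p = 0.0272), and the Gda regions 77.3 kb (1.09, adjusted p = 0.0269) and 35.2 kb upstream (1.00, adjusted p = 0.0231), all by edgeR.

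The Slc22a8 and Zfp932 regions gave no call between the cell states in either genotype. The leading Slc22a8 region differed by 0.07 ± 0.38 in controls and -0.08 ± 0.23 in Atg14-deficient cells (adjusted p = 0.983 and 0.871). The Zfp932 promoter gave -0.88 ± 0.76 in controls, on 12 and 18 counts, and 0.11 ± 0.32 in Atg14-deficient cells (adjusted p = 0.567 and 0.871). In controls a difference at these counts was not detectable unless it was large, and the control value turned to 0.40 without control cTreg replicate 3.

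**Figure D5:**
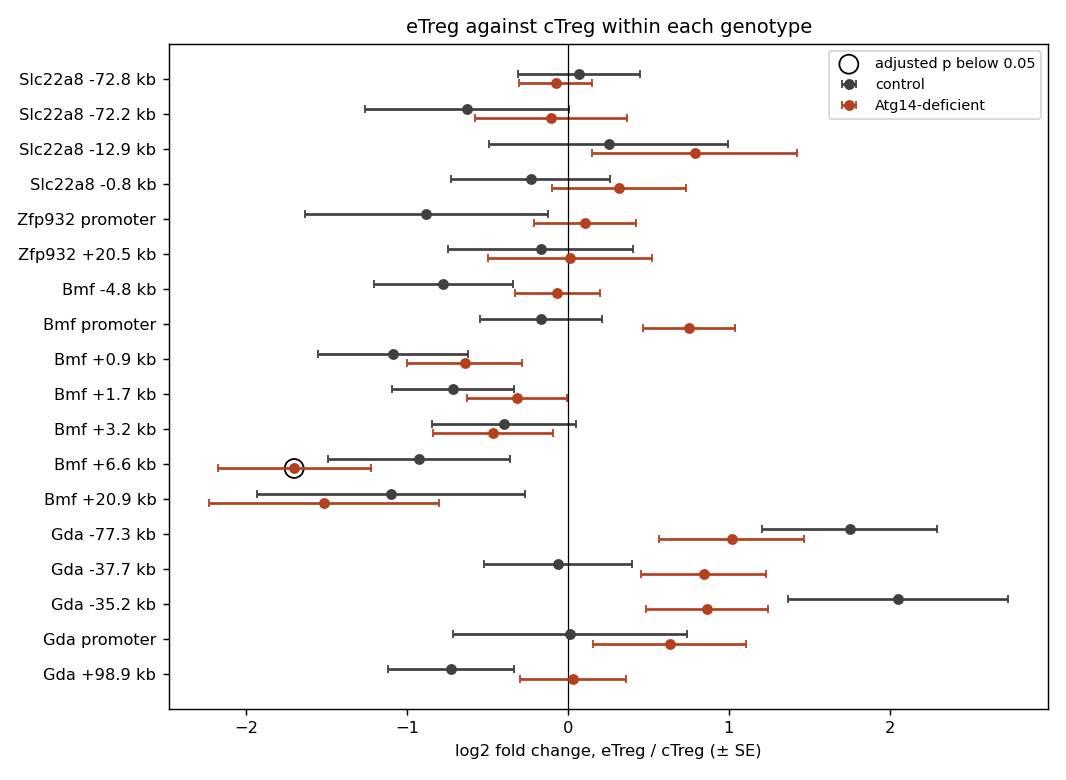
Log2 fold change (± SE) of eTregs against cTregs for the 18 tested member regions, in control and in Atg14-deficient cells, named by gene and kb from its start. The open circle marks the only call of the main test (Bmf, 6.6 kb, -1.70), and the 2 Gda values at 77.3 and 35.2 kb upstream lie farthest to the right in controls (1.75 and 2.05).

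Calls at the promoters of related genes are given for reading against the background shares above. Of 8 BH3-only genes, 7 had a promoter region (12 regions in all, Bmf among them). In controls edgeR called 0 after adjustment and 2 at an unadjusted p of 0.05. In Atg14-deficient cells it called 1 and 3, which is near the background in both genotypes. The promoter of Bad, another BH3-only gene, rose in Atg14-deficient eTregs against cTregs (log2 fold change 0.93 ± 0.27, edgeR adjusted p = 0.0263), next to 0.95 ± 0.31 in controls (adjusted p = 0.0663). Between genotypes the medians over the 12, which include the Bmf promoter selected on these contrasts, were 0.02 in eTregs and -0.0018 in cTregs. The 10 purine metabolism genes had 12 promoter regions, of which 0 passed the adjusted threshold of edgeR in any of the 4 contrasts, Gda among them. At an unadjusted p of 0.05, 1 passed between cell states in controls, 0 in Atg14-deficient cells and 1 in each genotype contrast. In both genotype contrasts this was the Gda promoter, of a gene selected on these contrasts. Of 11 organic anion transporter genes of the Slc22 family, only Slc22a8 had a promoter region, at 4.85 to 7.85 CPM on average over the 4 groups. Zfp605 was the only other Zfp or Zkscan gene with a start within 1 Mb of Zfp932. Its promoter averaged 43.8 and 41.5 CPM in control and Atg14-deficient cTregs and 27.3 and 25.7 CPM in eTregs, and it fell by 0.69 ± 0.19 in Atg14-deficient eTregs against cTregs (edgeR adjusted p = 0.0189), next to -0.68 ± 0.21 in controls (adjusted p = 0.0573).

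Outside the loci, the tested regions whose log2 CPM was most like that of each leading region over the 14 libraries are given as a description. The libraries share depth and genotype, and Pearson's r carries no test here. For the Slc22a8 region they were the region 3.60 kb from H2-T3 (r = 0.963) and those 0.747 and 0.051 kb from H2-M3 (0.963 and 0.950). For the Zfp932 promoter they were the same regions, at H2-M3 (0.957 and 0.948) and H2-T3 (0.934). H2-M3 and H2-T3 are non-classical MHC class I genes on chromosome 17. The first H2-M3 region, chr17:37270769-37271193, averaged 2.03 CPM in control and 43.9 in Atg14-deficient cTregs, and 1.67 and 38.8 in eTregs. The H2-T3 region was far lower, at 0 and 3.32 CPM in control and Atg14-deficient cTregs and 0.217 and 2.68 in eTregs. That is near the limit of 3 read pairs, which is 1.08 to 2.68 CPM by library. The regions most like that of Bmf were nearest to Gimap6 (0.924), Sp1 (0.905) and Xkr6 (0.901), and those most like that of Gda were nearest to Il17re (0.925), Mgat5b (0.922) and Zfp46 (0.916). The Il17re region was also near this limit, at 0.163 and 1.52 CPM in control and Atg14-deficient cTregs and 0.987 and 3.73 in eTregs.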

How the data were processed

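Bulk ATAC-seq libraries were compared in 4 groups. Per the study's methods, the authors trimmed and aligned reads, removed duplicates, corrected positions for the transposase offset, restricted fragments to the nucleosome-free size, called peaks per library, kept those in 50% or more of a group's replicates, merged them and counted reads with bedtools. The deposited values are raw counts for 67254 regions, and 82.0% of them are even numbers. The submitters' processing notes name cutadapt 1.9, Picard 1.65, MACS2 2.1.0.20150603, mm10 and GRCm38, while the methods name mm9. All 67207 regions on chromosomes lay within GRCm38, where 24456 of 56164 protein-coding starts were covered by a region (1066 when the starts were moved aside), so GRCm38 was used. The members and the gene lists were chosen with earlier results of these data known.

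Regions were assigned by RefSeq annotation. Models were fitted with edgeR 4.0.16 and limma 3.58.1 under R 4.3.3: library sizes as total counts, its low-count filter, and 1 robust quasi-likelihood model with a coefficient per group over all 14 libraries, with Benjamini-Hochberg adjustment over 61366 regions. Calls required both an adjusted p under 0.05 and an absolute log2 fold change over 0.5. The SE given with a log2 fold change was worked back from its test, as the absolute value over the square root of the quasi-likelihood F statistic. CPM are counts per 1000000 of the library total, and log2 CPM used a prior count of 2. The median tested region had a mean count of 23 per library, which limits precision. The procedure was tested on simulated data. Regions described by library were, per locus, the strongest one, the one with the smallest p in each genotype contrast and in the control eTreg contrast, the one at the start, and any called. Copies were found with BLAST+ 2.17.0, and tables made in Python 3.11.15 with pandas 2.3.3, NumPy 2.4.6 and matplotlib 3.10.9. Alternatives were DESeq2 1.42.0, other scalings and filters, a fit of only the compared groups, a replicate block and leaving out each library.

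Same-numbered eTreg and cTreg libraries of the Atg14-deficient group correlated in their deviations from the group means (r = 0.119, 0.243, 0.140 and 0.225). Each eTreg library of both genotypes correlated best with the cTreg library of its own number (control r = 0.054, 0.209 and 0.190). Between genotypes, same-numbered libraries gave r = -0.014, -0.203 and 0.012 in eTregs and 0.004, -0.217 and 0.091 in cTregs. The last of these was also a best match by number. Both cell types came from the same mice, but the labels give only the numbers, so the main fit has no block and the blocked values are given beside it.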

Additional observations from a re-analysis of the deposited data

Results flagged for a closer look

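Of the 38 sets of 4 Atg14-deficient libraries (19 members, 2 cell states), 3 held a library far from the others by Dixon's criterion for 4 samples, of which chance gives about 1 in 20. All were in eTregs. The leading Bmf region stood at 66.8 CPM in replicate 1, the Zfp932 promoter at 40.2 CPM in replicate 2, and the Gda region 37.7 kb upstream at 5.29 CPM in replicate 3. The first 2 lay above and the last below the other 3 libraries, and each of the 3 remained above every control eTreg library.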

How the results depend on the processing

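Each count of called members was recomputed under 23 alternatives, and the log2 fold changes of the 11 regions chosen for description under those alternatives that kept the region. The called counts were 0 and 1 between cell states in control and Atg14-deficient cells, and 5 and 4 between genotypes in eTregs and cTregs. With at least 10 counts required in every library, 2 members could be tested and the last 3 counts fell to 0, which follows from the fewer regions tested. In controls the count became 1 with TMM or DESeq2 size factors, 2 by DESeq2's Wald test and 2 with the replicate block. With the block, the Atg14-deficient contrast called 4, while the share over all tested regions rose from 9.81% to 15.5% (5.3% to 10.4% in controls). The block by number across genotypes, which groups different mice, changed no genotype count beyond 5 to 4 in eTregs. Leaving out 1 library gave 0 to 2 in controls (1 without control cTreg replicate 2 or Atg14-deficient cTreg replicate 1 or 3, 2 without Atg14-deficient cTreg replicate 2), 0 to 1 in Atg14-deficient cells (0 without eTreg replicate 1 or 4, while without cTreg replicate 4 the 1 call was the leading Gda region in place of the Bmf region at 6.6 kb), 3 to 5 between genotypes in eTregs (3 without control replicate 1) and 2 to 4 in cTregs (2 without control replicate 1).

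The genotype log2 fold changes of the leading regions kept their sign throughout, from 2.13 to 5.64 in eTregs and from 2.33 to 5.34 in cTregs. The Gda region at 77.3 kb in controls passed with TMM (1.76), DESeq2 size factors (1.79), the replicate block (1.87), the Wald test (1.83), and without 4 single cTreg libraries (1.75 to 2.23). The leading Gda region in controls, which a filter on control libraries alone did not keep, passed with the block, with the Wald test (2.17) and without Atg14-deficient cTreg replicate 2 (2.05). Several values changed sign between cell states when 1 library was left out, also where the value with all libraries was not near 0 (-0.63 at the Slc22a8 region at 72.2 kb and -0.88 at the Zfp932 promoter, both in controls). The Slc22a8 region at 72.2 kb ranged from -1.43 to 0.0048 in controls and from -0.34 to 0.031 in Atg14-deficient cells, and the Zfp932 promoter from -1.48 to 0.40 and from -0.013 to 0.31. The leading Slc22a8 region ranged from -0.13 to 0.24 and from -0.17 to 0.049. In controls the ranges were -0.58 to 0.12 at Slc22a8 0.8 kb, -0.43 to 1.01 at the Gda promoter and -0.41 to 0.17 at the Bmf promoter, and in Atg14-deficient cells the leading Bmf region ranged from -0.22 to 0.00076. Between genotypes, Slc22a8 at 0.8 kb in cTregs ranged from -0.51 to 0.41 (-0.21 with the block) and Bmf at 6.6 kb in eTregs from -0.27 to 1.18. Low counts, 8 to 38 per control group at the Zfp932 promoter and the leading Slc22a8 and Gda regions (8 in control cTregs at Gda), limit the size of these folds. The causes of these changes were not tested.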
